A study of Mus musculus with 2 samples.

Results

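The 10 genes described here are transcription factors and 1 signalling regulator of the immediate early response: the Fos family genes Fos, Fosb, Fosl1 and Fosl2, the Jun family genes Jun, Junb and Jund, and Egr1, Atf3 and Ier3. They were chosen by gene symbol with earlier results of these data known, and all 10 were found among the 18944 genes listed in both expression tables. RNA was sequenced from mouse cultures labelled as intestinal stem cells, with 1 library of Stat6 knockout (KO) cells of genotype Lgr5GFP-CreERT2 Stat6 KO and 1 library of wild-type (WT) cells of genotype Lgr5GFP-CreERT2 WT, both at 2 months of age. Both groups therefore carried the Lgr5GFP-CreERT2 allele, in which the promoter of the stem cell gene Lgr5 drives GFP and a Cre recombinase that can be induced. The comparison asks how gene expression in these cells differs without STAT6, the transcription factor downstream of interleukin-4 and interleukin-13.

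Per the labels, Stat6 was targeted with a CRISPR/Cas lentivirus and deficient cells were then selected. The labels repeat this protocol for WT, and do not say if the WT cells received a virus or if the KO cells derive from 1 clone. Both cultures grew in a medium with epidermal growth factor, listed at 50 ng/ml and again at 20 ng/ml, and with the Wnt agonist R-spondin 1.

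Fos and Jun proteins form AP-1, a dimeric transcription factor. Each carries a basic region that contacts DNA and a leucine zipper that holds the pair together. Fos proteins need a Jun partner, whereas Jun proteins can also pair with each other. Growth factors such as epidermal growth factor act through MAP kinases to switch on Fos, Fosb, Egr1 and Ier3 within minutes, before new protein is made, and their mRNAs decay fast. Fosl1 and Fosl2 usually follow later, and Fosl1 is itself an AP-1 target gene. In the gut epithelium, AP-1 is known for its part in crypt cell proliferation and in the response to injury.

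Levels are FPKM, read numbers divided by transcript length and by the mapped reads of the library, and can be compared between genes because they are scaled to length. The difference between genotypes is the log2 ratio, log2((KO FPKM + 1)/(WT FPKM + 1)), so that a negative value means lower in KO. A gene was measured when it reached 1 FPKM in at least 1 library, and was called when the log2 ratio reached 1 in either direction, a 2-fold difference. There was 1 library per genotype, so no difference below has a replicate check and none was tested. The Stat6 transcript was at 44.2 FPKM in KO and 41.3 FPKM in WT (log2 ratio 0.10), a level that does not check a small CRISPR deletion or insertion.

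Of 12079 measured genes, 263 (2.18%) were called lower in KO and 295 (2.44%) higher. Their log2 ratios had a median of -0.18, and values relative to that median are given where the scaling matters. The stem cell marker Lgr5 was at 1.88 FPKM in KO and 1.79 FPKM in WT. Of 8 stem cell markers, 2 were called lower, Cd44 and Sox9, and of 10 markers of absorptive enterocytes, 9 were called higher, with summed levels of 15813.5 FPKM in KO and 4394.95 FPKM in WT. These cultures thus held abundant transcripts of differentiated cells, and differed in them.

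Among the 10 AP-1 and immediate early genes, 1 was called lower in KO, Fosl1, and 0 were called higher. That is 10% of the members lower, against 2.18% of all measured genes. At a smaller threshold of 1.5-fold, 5 members were lower and 0 higher, where 11.4% of all measured genes were lower and 5.7% higher. The 5 were Fosl1, Fos, Fosb, Jund and Egr1. With a trimmed mean of ratios (TMM) used for scaling, 3 were lower at that threshold, Fosl1, Fos and Fosb, against 5.39% of all measured genes. The 10 members had a median of -0.56, which lay -0.38 from that of all genes, and they spanned -1.81 to 0.13. All 10 members passed the minimum level. Fosb did so through the WT library alone, so its difference and its place in these counts were partly fixed by that minimum. Apart from Fosb, the members lower at 1.5-fold were Fosl1, Fos, Jund and Egr1, and with TMM scaling Fosl1 and Fos. The other 9 members were above 1 FPKM in both libraries.

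**Figure D1:**
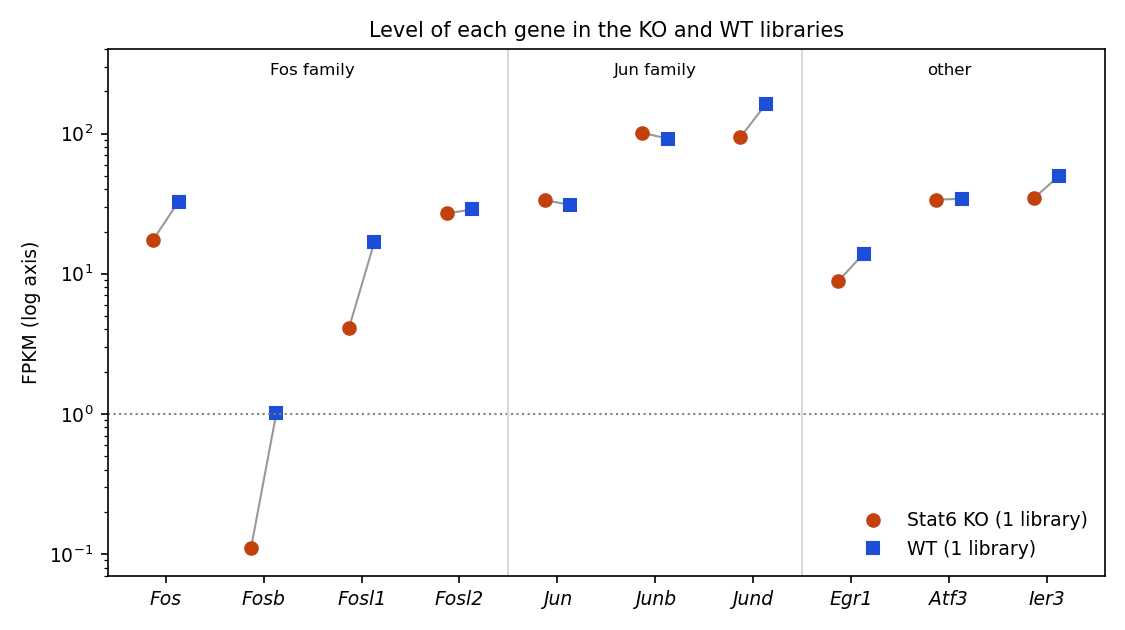
Level of each of the 10 genes in FPKM on a log axis, with the Stat6 KO library (circle) left of the WT library (square) and 1 library per genotype. The dotted line marks 1 FPKM. Fosl1 and Fosb show the steepest lines, while Fosl2, Jun, Junb and Atf3 lie nearly level.

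Fosl1, which encodes the AP-1 subunit FRA-1, was at 4.07 FPKM in KO and 16.8 FPKM in WT. The KO level was lower by a factor of 4.13, and the log2 ratio was -1.81, or -1.63 relative to all genes. Its log2 ratio was the 40th lowest of all 12079 measured genes, so that 0.323% of them lay below it. About 152 reads stood behind the value in KO and about 608 in WT, from a depth estimated from the tables that is well below the 59000000 reads a sample in the labels.

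Fosb encodes a Fos subunit that is nearly silent in resting cells. It was at 0.11 FPKM in KO and 1.02 FPKM in WT, or about 8 and about 76 reads. The deposited levels differed by a factor of 9.27, the widest ratio of the 10 genes, although the KO value is known only to 2 decimals. Its log2 ratio was -0.86 with the pseudocount of 1, which pulls such low levels together, and -2.42 with a pseudocount of 0.1, at which it was called lower.

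Fos, the founding member of the family and its fastest responder to growth factors, was at 17.5 FPKM in KO and 32.7 FPKM in WT (log2 ratio -0.87). It stood 4368th in level among the listed genes in KO and 2722nd in WT. Only 3.54% of measured genes had a lower log2 ratio, but Fos did not reach the 2-fold threshold.

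Fosl2, which encodes FRA-2, was at 26.9 FPKM in KO and 28.7 FPKM in WT. The log2 ratio of Fosl2 was -0.09, and it was 0.13 with the TMM factor, so its direction turned with the scaling. The ratio of Fosl2 to Fosl1 was 6.62 in KO and 1.71 in WT, and that of Fosl2 to Fos was 1.54 in KO and 0.878 in WT.

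The Fos family sum was 48.6 FPKM in KO and 79.3 FPKM in WT, and its makeup differed. Fosl2 made up 55.4% of the sum in KO and 36.2% in WT. Fos made up 36.0% in KO and 41.3% in WT, Fosl1 8.38% in KO and 21.2% in WT, and Fosb 0.226% in KO and 1.29% in WT. Fosl2 was thus the most abundant Fos family transcript in the KO library and Fos in the WT library, in an order for which no replicate spread is known.

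**Figure D2:**
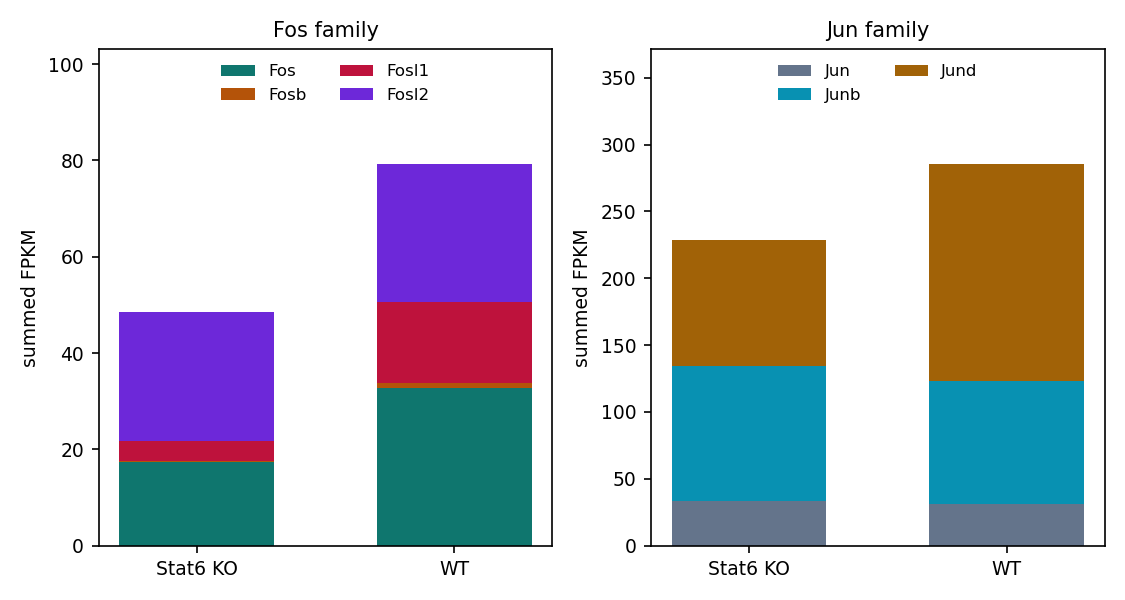
Summed FPKM of the Fos family (left panel) and the Jun family (right panel) in the Stat6 KO and WT libraries, each bar stacked by gene. The Fos family sum is 48.6 FPKM in KO and 79.3 FPKM in WT, and Fosl2 keeps nearly the same height in both bars. In the Jun panel the Jund segment is the one that differs in height.

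The Jun family was the more abundant side of AP-1 in both libraries. Its sum was 229 FPKM in KO and 286 FPKM in WT, which was 4.70 times the Fos family sum in KO and 3.60 times in WT. Jun, the best-studied partner of Fos and a target of the JNK kinases, was at 33.4 FPKM in KO and 31.1 FPKM in WT (log2 ratio 0.10). Junb, often a weaker activator than Jun, was at 100.9 FPKM in KO and 92.3 FPKM in WT (0.13). Both log2 ratios were above 0 under each scaling tried.

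Jund, a broadly expressed Jun subunit that is less dependent on growth factors, was the only one of the 3 at least 1.5-fold lower in KO, a size it did not reach with the TMM factor. It was at 94.3 FPKM in KO and 162 FPKM in WT (log2 ratio -0.78, and -0.55 with the TMM factor), and 5.01% of measured genes had a lower log2 ratio. Junb was 1.07 times as abundant as Jund in KO and 0.569 times in WT. Jund made up 41.2% of the Jun family sum in KO and 56.8% in WT, and Junb 44.1% in KO and 32.3% in WT. Without Jund, Junb held 75.1% of the remainder in KO and 74.8% in WT, so Jun and Junb kept the same proportion to each other.

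Egr1, a zinc finger factor that serum response factor switches on together with Fos, was at 8.85 FPKM in KO and 13.9 FPKM in WT (log2 ratio -0.60, or -0.42 relative to all genes). Of its corepressors, Nab2, also known as an Egr1 target, was at 11.2 FPKM in KO and 6.23 FPKM in WT (0.75), and Nab1 at 10.8 FPKM in KO and 14.1 FPKM in WT (-0.36). Neither Egr1 nor a corepressor was called.

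Ier3, a short-lived regulator of survival that growth factors and NF-kB induce, was at 34.7 FPKM in KO and 50.2 FPKM in WT (log2 ratio -0.52). Atf3, a stress-induced member of the ATF/CREB family that can pair with Jun proteins, was at 33.8 FPKM in KO and 34.2 FPKM in WT. The log2 ratio of Atf3 was -0.02, against 0.21 after TMM scaling, so no direction can be given for it.

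**Figure D3:**
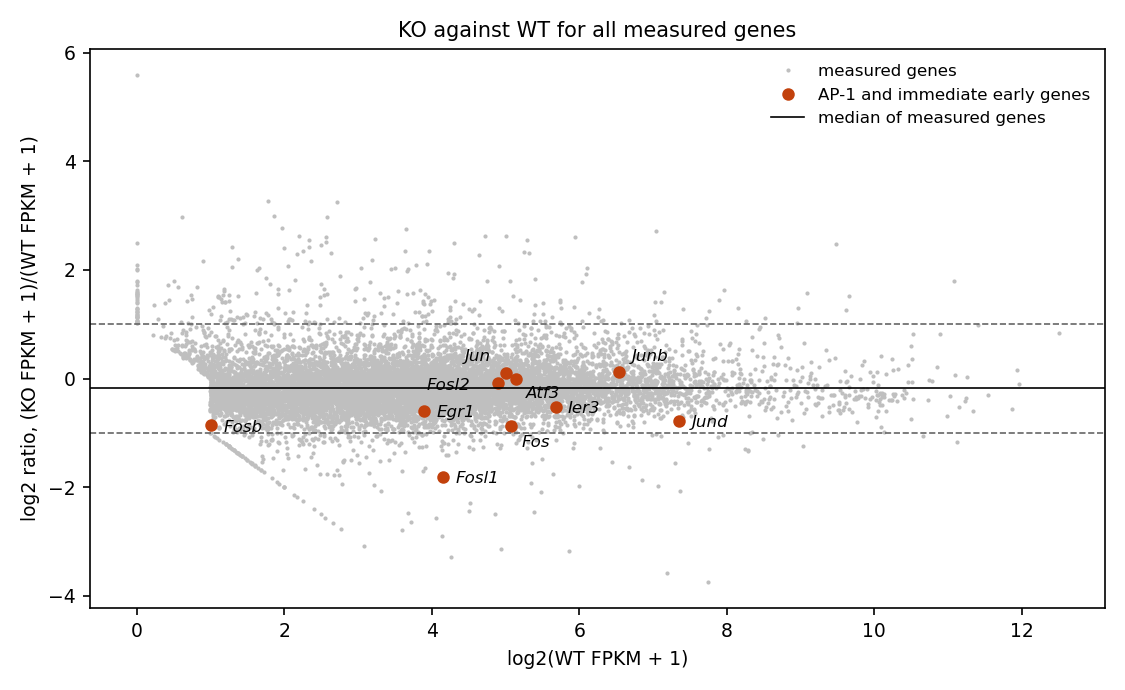
Log2 ratio of KO over WT against log2(WT FPKM + 1) for the 12079 measured genes (grey), with the 10 AP-1 and immediate early genes in orange. The dashed lines mark 2-fold and the solid line the median of -0.18. Fosl1, at -1.81, is the labelled gene below the lower dashed line.

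Upstream sequences from the RefSeq promoter table (build GRCm38.p6) were compared for 8 members. Fosl1 and Egr1 were left out of this search, so the counts out of 8 do not cover them. The 250 bases before the annotated start were searched on both strands. The letters TGACG, a half-site of the cyclic AMP response element (CRE) that CREB and ATF proteins bind, were found in 4 of the 8, those of Fos, Fosb, Junb and Atf3, against 17.8% of all 32851 promoters in the table. The windows of Fos, Fosb, Junb and Atf3 were 58.4%, 68.8%, 66.4% and 65.2% G and C, where all promoters had a median of 52.4%. The share of all promoters is thus not matched for base content. These 4 are shown because they share the letters TGACG although Fos and Fosb stood lower in KO and Junb and Atf3 did not. They are Fos at chr12:85473640-85473889 on the plus strand, and, on the minus strand, Fosb at chr7:19310046-19310295, Junb at chr8:84978749-84978998 and Atf3 at chr1:191183334-191183583. Capitals mark TGACG or its reverse complement, the TATA box letters TATAAA and the CCAAT box letters CCAAT.
Fos: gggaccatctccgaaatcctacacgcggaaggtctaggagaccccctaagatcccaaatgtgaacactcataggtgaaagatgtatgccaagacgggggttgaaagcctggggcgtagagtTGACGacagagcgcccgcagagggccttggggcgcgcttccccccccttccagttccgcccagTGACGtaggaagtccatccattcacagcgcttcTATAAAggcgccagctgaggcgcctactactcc
Fosb: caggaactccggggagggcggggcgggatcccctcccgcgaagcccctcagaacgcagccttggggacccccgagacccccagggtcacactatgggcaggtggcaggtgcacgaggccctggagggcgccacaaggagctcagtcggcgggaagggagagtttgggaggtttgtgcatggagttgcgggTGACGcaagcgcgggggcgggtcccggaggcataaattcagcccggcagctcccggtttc
Junb: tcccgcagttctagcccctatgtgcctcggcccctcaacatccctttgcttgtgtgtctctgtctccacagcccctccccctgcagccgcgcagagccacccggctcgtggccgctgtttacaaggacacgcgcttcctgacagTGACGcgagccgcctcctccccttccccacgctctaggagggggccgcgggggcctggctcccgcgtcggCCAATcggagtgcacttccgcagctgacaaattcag
Atf3: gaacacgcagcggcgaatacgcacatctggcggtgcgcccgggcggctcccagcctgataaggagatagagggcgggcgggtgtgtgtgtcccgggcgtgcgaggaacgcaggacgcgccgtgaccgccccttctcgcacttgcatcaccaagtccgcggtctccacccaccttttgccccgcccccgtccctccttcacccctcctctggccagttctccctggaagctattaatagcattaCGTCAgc

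In the Fos promoter TGACG began 66 and 129 bases before the start, and TATAAA 33 bases before it. In Fosb it began 60 bases before the start, in Junb 106, and in Atf3 the reverse complement began 7 bases before it. The full CRE letters TGACGTCA, which contain the half-site, were found in 0 of the 8 and in 1.55% of all promoters. The AP-1 site TGANTCA was found in 0 of the 8 and in 6.75% of all promoters. The STAT6 site, TTC and GAA with 4 bases of any kind between them, was found in 0 of the 8 and in 5.85%, and the STAT site with 3 bases between them in 0 of the 8 and in 7.02%. TATAAA was found in 1 of the 8 (Fos) and in 12.4% of all promoters, and CCAAT in 3 of the 8 (Jun, Junb and Ier3) and in 33.8%. The EGR site GCGNGGGCG was found in 2 of the 8 (Fosb and Fosl2) and in 4.7%, and the CArG box, which serum response factor binds, in 0 of the 8 and in 1.47%. A match is a description of the letters in this window, and the lack of one says nothing of sites farther away.

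The transcripts of these genes have few exons. In GENCODE M21 the 10 members had a median of 3 exons, where the 11426 measured genes with an entry had a median of 9. Jun, Junb and Jund have a single exon, as do 1.92% of measured genes. All 10 carried at least 1 copy of ATTTA, the pentamer of AU-rich elements that mark unstable mRNAs, in the 3' untranslated region, as did 66.2% of measured genes. The number of copies was 8 in Fosl2, 5 in Ier3, 4 in Fos and Jun, 3 in Atf3, 2 in Junb and Egr1, and 1 in Fosl1, Fosb and Jund.

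Among RNA-binding proteins that act on such elements, 0 of 10 were called, where 2.18% of all measured genes were lower and 2.44% higher. The median log2 ratio of the 10 was -0.29. The decay factor Zfp36 (tristetraprolin) was at 42.7 FPKM in KO and 36.7 FPKM in WT (0.21), and its relative Zfp36l2 at 43.9 FPKM in KO and 75.0 FPKM in WT (-0.76).

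Genes beside the members on the chromosome were also read. Of 40 measured neighbours, the nearest on each side up to 4 a member, 0 were called lower and 3 higher (7.5%, against 2.44% of all measured genes), with a median log2 ratio of -0.20. The 3 were Flvcr2 beside Fos (1.40), Cyp2j6 beside Jun (1.16) and Plb1 beside Fosl2 (1.03). Drap1, AI837181, Fibp and Efemp2 around Fosl1 had log2 ratios of -0.46, -0.18, -0.06 and -0.29. Ccdc85b overlaps Fosl1 in the RefSeq annotation and was at 4 FPKM in KO and 5.74 FPKM in WT. The labels name no strand setting, so reads in that overlap cannot be told apart. Beside Fosb, 3 of 4 neighbours were also low without being called, Rtn2 at -0.87, Cd3eap at -0.84 and Ercc1 at -0.63.

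The other genes of the pathway were read as lists. The 30 signalling genes upstream ran from the receptor Egfr through RAS, RAF and the MAP kinases to serum response factor, its partners and CREB. Of these 0 were called, where 2.18% of all measured genes were lower and 2.44% higher. The 30 had a median log2 ratio of -0.11. Egfr, the receptor of epidermal growth factor, was the lowest, at 5.63 FPKM in KO and 9.73 FPKM in WT (-0.69). Rps6ka5, the nuclear kinase MSK1, was the highest, at 2.60 FPKM in KO and 1.10 FPKM in WT (0.78). Srf itself was at 20.0 FPKM in KO and 23.0 FPKM in WT.

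Of 26 measured immediate early genes outside the 10 members, 1 was called lower (3.85%) and 0 higher. That is near the share of all measured genes, 2.18% lower and 2.44% higher. The 26 had a median of -0.31. The called gene was Klf2, a zinc finger factor best known in endothelium and lymphocytes, at 0.33 FPKM in KO and 1.75 FPKM in WT (-1.05). Like Fosb it reached the minimum through the WT library alone. Genes of this list lay on both sides: the orphan receptor Nr4a1 was at 2.27 FPKM in KO and 5.25 FPKM in WT (-0.93), while Klf4, a factor of epithelial differentiation, was at 51.3 FPKM in KO and 26.4 FPKM in WT (0.93), and the stress gene Gadd45a at 52.3 FPKM in KO and 26.6 FPKM in WT (0.95). Those 3 were chosen after their values were seen. With the TMM factor 0 genes of the list were called lower and 2 higher, where 171 of all 12079 measured genes were lower and 440 higher.

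Other bZIP genes, whose proteins can pair with Fos or Jun, had 0 called lower. Maf, a large Maf factor, was called higher, at 16.5 FPKM in KO and 3.16 FPKM in WT (2.08). The small Maf genes Maff, Mafg and Mafk had log2 ratios of -0.004, -0.13 and -0.12. Of the 13 integrated stress response genes around Atf3, 0 were called, where 2.18% of all measured genes were lower and 2.44% higher. The 13 had a median of 0.04. They ran from Eif2ak3, the kinase PERK, at 15.2 FPKM in KO and 22.1 FPKM in WT (-0.52), to the pseudokinase Trib3, at 21.8 FPKM in KO and 12.3 FPKM in WT (0.78).

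Genes known as AP-1 targets had a median of -0.49, which lay -0.31 from that of all genes, and 6 of 25 measured were called lower (24%, against 2.18% of all measured genes) and 0 higher. Earlier results of these libraries had already shown several of them low when the list was made, so its count is not independent evidence of direction. Edn1, which encodes the vasoconstrictor endothelin 1, was at 2.48 FPKM in KO and 29.8 FPKM in WT (-3.15). Hbegf, a ligand of the epidermal growth factor receptor, was at 12.9 FPKM in KO and 40.1 FPKM in WT (-1.56). The hyaluronan receptor Cd44 was at 28.8 FPKM in KO and 85.9 FPKM in WT (-1.54).

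The other 3 called targets were the collagenase Mmp13, at 5.37 FPKM in KO and 14.2 FPKM in WT (-1.25), the intermediate filament gene Vim, at 25.6 FPKM in KO and 59.8 FPKM in WT (-1.19), and the integrin chain Itgb6, at 6.13 FPKM in KO and 13.3 FPKM in WT (-1.001). With the TMM factor 4 of the 25 were called lower, against 1.42% of all measured genes. Cd44 also stands in the stem cell list. In all, 20 of the 25 lay below the median of all genes. On the other side was Vegfa, the endothelial growth factor gene, at 66.1 FPKM in KO and 44.0 FPKM in WT (0.58).

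**Figure D4:**
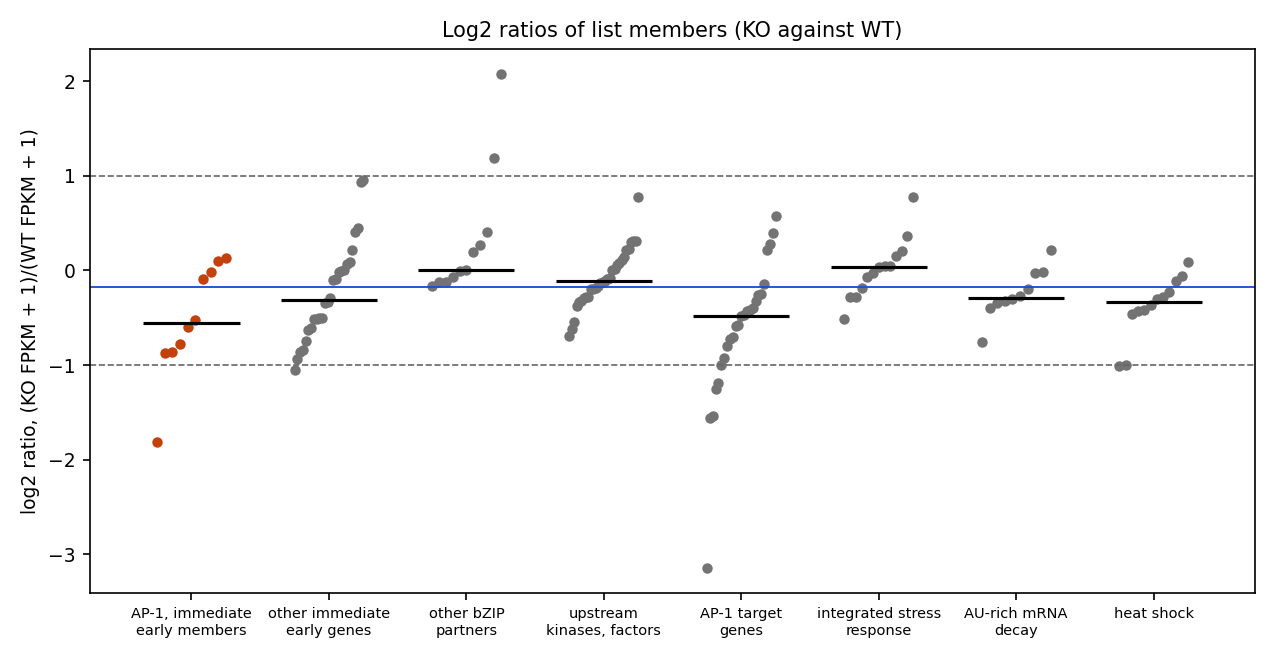
Log2 ratio of KO over WT for each measured gene of the 10-member group (orange) and of 7 further lists (grey), sorted within a list, with a black bar at the list median. The blue line is the median of all measured genes, -0.18, and the dashed lines mark 2-fold. AP-1 target genes have 6 points below the lower dashed line, and the upstream list has none beyond either line.

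Several other features differed between the libraries in the same direction as Fosl1, and their part in its lower level was not tested. Of 6 markers of hormone-producing enteroendocrine cells, 2 were called lower (Gcg and Tph1), or 33.3%, against 2.18% of all measured genes. All 6 lay below the median of all genes, with summed levels of 378 FPKM in KO and 754 FPKM in WT. The 8 stem cell markers summed to 84.3 FPKM in KO and 159 FPKM in WT. Most of that gap came from Cd44 (28.8 FPKM in KO and 85.9 FPKM in WT) and Sox9 (9.68 FPKM in KO and 22.5 FPKM in WT). Ascl2, Olfm4 and Axin2 were lower without being called, while Lgr5, Smoc2 and Tnfrsf19 were slightly higher in KO. The stem cell list had a median log2 ratio of -0.21, close to the -0.18 of all measured genes. Of 8 measured white blood cell markers, 2 were called lower (Cd68 and Coro1a), or 25%. The summed level of the 10 listed was 19.2 FPKM in KO and 43.4 FPKM in WT, with Cd68 and Lyz2 as its largest parts. Itgam went the other way, at 1.72 FPKM in KO and 1.26 FPKM in WT. Of 5 measured endothelial markers 1 was called lower (Cldn5), or 20%, with sums over 7 listed of 5.79 FPKM in KO and 13.9 FPKM in WT. Fibroblast markers summed to 3.21 FPKM in KO and 5.94 FPKM in WT over 8 genes, of which 2 were measured. Most of that gap came from Dcn (0.88 FPKM in KO and 2.75 FPKM in WT), while Col3a1 and Pdgfra were equal in both libraries. Smooth muscle markers did not clearly share this direction, with sums of 2.47 FPKM in KO and 2.81 FPKM in WT over 5. Tagln, the 1 of them that was measured, was at 2.04 FPKM in KO and 1.94 FPKM in WT. None of the markers in these lists was at 0 in either library.

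Heat shock genes, which handling of cells can induce as it does Fos, Jun and Egr1, had 1 of 12 called lower and 0 higher. That is 8.33% lower, against 2.18% of all measured genes. The called gene was Hspb1, at 19.0 FPKM in KO and 39.4 FPKM in WT (-1.01), and the list had a median of -0.33. That call was lost under each other scaling tried, and the part of handling was not tested. In bulk RNA, fewer cells of a type and less RNA per cell cannot be told apart for any of these genes.

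By level in both libraries, the 3 genes nearest to Fosl1, by Euclidean distance over log2(FPKM + 1) in KO and in WT, were St3gal1, Snora73a and Cxcl3. St3gal1, a sialyltransferase gene, was at 4.09 FPKM in KO and 17.3 FPKM in WT, a distance of 0.04. The chemokine gene Cxcl3 was at 3.51 FPKM in KO and 13.8 FPKM in WT, and the small nucleolar RNA Snora73a at 3.81 FPKM in KO and 14.1 FPKM in WT. With 2 libraries such likeness rests on 1 difference.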

How the data were processed

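Single-end reads of 50 bases, on average 59000000 for each sample, were made from 1 Stat6 KO and 1 WT culture, per the labels. The authors deposited FPKM values per gene, rounded to 2 decimals. HISAT, Bowtie2, RSEM and the mm9 build were used, per the submitters' processing notes; the annotation and versions were not given in the sources used here. A few very abundant genes can move all FPKM values.

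The 2 tables were joined on Entrez gene number, and log2 ratios were computed with a pseudocount of 1 FPKM in Python 3.11.15 (numpy 2.4.6, pandas 2.3.3), checked on simulated data. With 1 library per genotype no p-value was computed. Members and gene lists were chosen with earlier results of these data known. Named genes are the 10 members, Stat6, called members of each list (at most 6) or else its highest and lowest gene, and the 3 genes nearest to Fosl1. Some genes this selects are not reported here. Symbols, promoters and transcript features came from RefSeq GRCm38.p6 and GENCODE M21, not from mm9, so no coordinates were applied to the expression values.

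Read depth was estimated from the smallest FPKM steps of short RNA genes. A search from 10000000 to 30000000 reads gave 20400000 in KO and 19800000 in WT, with an effective length 37 bases below the annotated one. At these settings 88.6% of 123 values in KO and 88.5% of 165 values in WT lay within 0.1 read of a whole number, a share the search maximised. The search did not reach the 59000000 reads of the labels, which are well above these estimates, so read numbers are approximate and would be higher at a greater depth. Alternatives were pseudocounts of 0.1 and 5, 3 other scalings (an unweighted TMM factor with trims of 30% and 5%, centring on the median, and a total without ribosomal protein, mitochondrial and the 20 most abundant genes), other minimum levels and other fold thresholds.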

Additional observations from a re-analysis of the deposited data

How the results depend on the processing

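Fosl1 was the only member called lower under each scaling and each minimum level tried, with log2 ratios from -2.02 (pseudocount of 0.1) to -1.27 (pseudocount of 5), and no member was called higher in any setting. A pseudocount of 0.1 added Fosb, for 2 members called; a 1.5-fold threshold gave 5, and a 4-fold threshold 0. Of those 5, Egr1 was lost under each of the 3 other scalings and Jund with the TMM factor, which left 3; these combinations were added after the data were seen. The member median was -0.34 with a pseudocount of 5, -0.34 with the TMM factor and -0.38 when centred on the median, against all-gene medians of -0.12, 0.02 and 0.00. The TMM factor thus moved the all-gene median by 0.20, and it put Fosl2 and Atf3 above 0, leaving 6 of 10 members below 0.

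Genes called in all numbered 558, of which 47.1% were lower. They numbered 978 with a pseudocount of 0.1 (61.8% lower), 207 with 5 (30.4% lower), 2070 at 1.5-fold and 78 at 4-fold. The TMM factor gave 611 with 28% lower. Over the 8 pathway lists, 10 of 126 genes were called. That is 6.35% lower and 1.59% higher, where 2.18% of all measured genes were lower and 2.44% higher. Of the 10, 6 were AP-1 targets, a list made with earlier results known. The count was 5 with a pseudocount of 5, 29 at 1.5-fold and 2 at 4-fold, where 207, 2070 and 78 of all 12079 measured genes were called. No paired analysis was possible because each genotype had 1 library, and for the same reason no library could be left out. Depth limits Fosb most, at about 8 reads in KO.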
